A study of Mus musculus with 2 samples.

Results

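The genes described here run and restrain the cell division cycle of 4T1, a mouse mammary carcinoma cell line that spreads to the lung. The 45 members were taken by name from a fixed list. No measured value served as a filter, but the list was chosen with earlier results of these data known. All 45 were found among the 21911 genes of the deposited table, matched by Ensembl identifier to GENCODE M21 symbols on GRCm38. They were divided by role into 18 G1 regulators, which decide whether a cell starts to copy its DNA, and 26 mitotic genes, which bring a cell into and through mitosis. Ube2t, a ubiquitin-conjugating enzyme of DNA crosslink repair, was kept apart. Both groups were 4T1 cells grown in culture, 5000000 per condition, given either PBS or potassium oxalate for 48 h and sequenced as 1 library each. The oxalate dose is 20 µM in the sample characteristics and in the methods of the study, but 20 mM in the treatment protocol. The study was concerned with growth of these cells under oxalate, and the question here was whether transcripts of cell cycle genes differed with that treatment. It reported more colony formation by 4T1 cells given oxalate, and more Ki-67 staining of 4T1 cells in lungs of mice that inhaled it. Those are measures other than transcript levels in culture.

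In G1, cyclin D binds CDK4 or CDK6 and the pair phosphorylates the retinoblastoma protein, which holds E2F factors inactive until then. Freed E2F factors switch on cyclin E and the genes of DNA replication, while CDK inhibitors of the Cip/Kip and INK4 families oppose the kinases. Later, cyclin A and cyclin B drive CDK1 into mitosis, and a wave of kinases, motor proteins, centromere proteins and checkpoint proteins is transcribed for that purpose. Many of those mitotic promoters are known to hold CCAAT boxes, bound by the factor NF-Y, and a cell cycle genes homology region (CHR), bound by the DREAM and MuvB complexes. E2F sites are known from promoters that act at the G1/S border.

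To show how the promoters of both roles differ in sequence, 120 bases before the annotated start are given for 8 members, from RefSeq on GRCm38.p6 and on the strand of the gene. The stretch ends at the base before the start, except in Cdc20 and Cdk1, where the last 9 and 26 bases lie inside another annotated transcript and were left out. Capitals mark matches on either strand to CCAAT (read as ATTGG on the other strand), to the CHR core TTTGAA, and to the E2F motif in 4 spellings, TTTGGCGC, TTTCCCGC, TTTGCCGC and TTTCGCGC. No matches overlap each other in these stretches. The first 4 belong to mitotic genes, shown for their CCAAT boxes and, in Cdk1, Cdc20 and Top2a, for CHR cores.
Ccnb2, chr9:70421555-70421674, minus strand: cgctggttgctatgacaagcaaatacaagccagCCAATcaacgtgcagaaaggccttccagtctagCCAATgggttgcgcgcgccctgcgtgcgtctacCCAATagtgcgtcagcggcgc
Cdk1, chr10:69352939-69353058, minus strand: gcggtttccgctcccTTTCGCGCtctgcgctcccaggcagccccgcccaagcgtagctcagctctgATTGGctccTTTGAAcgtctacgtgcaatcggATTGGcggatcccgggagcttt
Cdc20, chr4:118437353-118437472, minus strand: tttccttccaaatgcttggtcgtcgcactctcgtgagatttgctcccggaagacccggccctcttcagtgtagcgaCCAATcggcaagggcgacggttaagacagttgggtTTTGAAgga
Top2a, chr11:99024190-99024309, minus strand: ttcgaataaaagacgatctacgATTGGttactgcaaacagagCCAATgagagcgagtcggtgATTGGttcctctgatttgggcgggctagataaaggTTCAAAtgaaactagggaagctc
Ccnb2 carried 3 CCAAT matches in this stretch, Cdk1 2, Cdc20 1 and Top2a 3. The CHR core was matched 1 time each in Cdk1, Cdc20 and Top2a, and Cdk1 also held the E2F motif. The next 4 belong to G1 regulators, of which Cdc25a and Rbl1 are shown for their E2F match and E2f3 and Cdkn1b because their transcripts were lower with oxalate.
Cdc25a, chr9:109875459-109875578, plus strand: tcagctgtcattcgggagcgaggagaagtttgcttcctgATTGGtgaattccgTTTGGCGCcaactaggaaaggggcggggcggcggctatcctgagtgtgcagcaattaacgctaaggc
Rbl1, chr2:157204535-157204654, minus strand: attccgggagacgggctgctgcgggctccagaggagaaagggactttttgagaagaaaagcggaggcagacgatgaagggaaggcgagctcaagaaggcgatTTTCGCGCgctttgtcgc
E2f3, chr13:29986064-29986183, minus strand: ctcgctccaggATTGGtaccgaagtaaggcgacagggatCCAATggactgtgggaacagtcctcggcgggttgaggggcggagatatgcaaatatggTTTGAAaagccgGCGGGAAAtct
Cdkn1b, chr6:134920281-134920400, plus strand: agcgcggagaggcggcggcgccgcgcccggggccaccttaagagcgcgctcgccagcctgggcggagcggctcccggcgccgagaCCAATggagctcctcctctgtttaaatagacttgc
E2f3 held 1 match to E2F, 1 to the CHR core and 2 to CCAAT, whereas Cdkn1b held a single CCAAT match.

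The same search over whole windows, from 250 bases before to 50 bases after the start, could be made for 34 members with 38 windows. Ccnd1, Ccnd2, Cdkn1c, Rb1, Ccne2, Ccna2, Cdc25c, Foxm1, Aurkb, Tpx2 and Kif20a are named only. Of the 20 windows of mitotic genes, 17 held a CCAAT box (85.0%), against 47.1% of 17 windows of G1 regulators and 37.4% of all 32851 windows. At least 2 CCAAT boxes were present in 55.0% of the mitotic windows and in 11.7% of all windows. The CHR core was found in 13 of the 20 mitotic windows (65.0%), in 17.6% of the G1 windows and in 17.9% of all windows, and every one of these 13 also held a CCAAT box. When only the 250 bases before the start were searched, the CHR core remained in 6 of the 20 mitotic windows (30.0%, against 5252 of all 32851 windows), since in Plk1, Aurka, Bub1b, Ttk, Cenpa, Cenpf and Kif23 it lay after the start. The E2F motif showed the other pattern, with 5 of 17 G1 windows (29.4%), 1 of 20 mitotic windows (that of Cdk1) and 2.26% of all windows. These matches describe letters in a window, not binding.

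The values are FPKM, fragments scaled to transcript length and to the mapped fragments of the library, which allow levels to be compared between genes. The fold change was log2((oxalate FPKM + 1)/(PBS FPKM + 1)), which understates the change of low genes, and the genes whose mean level reached 1 FPKM were compared, 10267 in all and 43 of the 45 members. With 1 library per condition no difference has a replicate check and no test between the conditions was possible. The depth, estimated from the steps of low FPKM values, was about 56800000 reads for PBS and 36500000 for oxalate. From these estimated reads a 95% Clopper-Pearson interval of the FPKM ratio was computed for each member. It covers counting error only, and it compares these libraries and not the conditions. All 5 epithelial markers (Epcam, Cdh1, Krt8, Krt18, Krt19) were present, summing to 1353 FPKM with PBS and 1419 FPKM with oxalate. Such markers do not identify a cell line. Of the leukocyte markers, Ptprc and Cd3e were at 0 in both libraries and Lyz2 was at 0.04 FPKM with PBS and at 0 with oxalate. The 3 endothelial markers summed to 0.08 and 0.09 FPKM, with Kdr at 0 in both libraries. Of 3 fibroblast markers, Col1a1 was at 143 and 145 FPKM, Pdgfra at 1.88 and 1.93 and Dcn at 0.31 and 0.33, and the part of such cells in the results was not tested.

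The cell cycle transcripts were abundant and nearly level between the libraries. Summed over the 45 members, they reached 3002 FPKM with PBS and 3000 FPKM with oxalate. The median log2 fold change of the 43 members was 0.004, beside 0.0031 over all genes tested, and 33 of them (76.7%) differed by less than 1.1-fold, beside 69.5% of all genes tested. On this scale, with the pseudocount of 1, no member was raised at least 1.2-fold, where 4.75% of all genes tested were, and 4 members (9.30%) were lowered at least 1.2-fold, where 5.19% were. With the trend of the fold change with GC content removed, the median of the members was -0.004. The lowered members were Cdkn1b, Rb1, E2f3 and Cdc25c. With a pseudocount of 0.1 or 0.001 Cdc25b was also raised at least 1.2-fold, as it was after scaling to the same FPKM sum. With the pseudocount of 1 no member passed 1.5-fold in either direction, against 0.935% of all genes raised and 1.05% lowered, and none passed 2-fold, against 0.292% and 0.360%. In RNA from a whole culture, a change in the share of cells in a phase and a change in RNA per cell cannot be told apart.

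**Figure D1:**
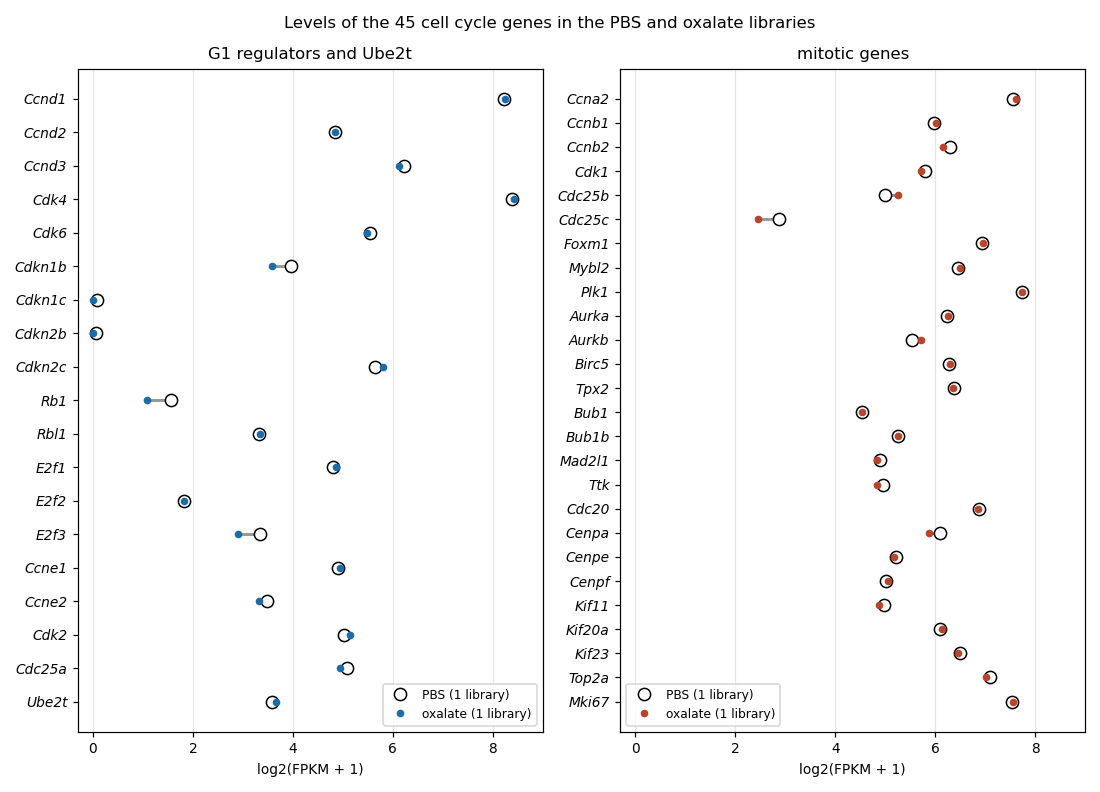
Level of each of the 45 members as log2(FPKM + 1) on the horizontal axis, with 1 row per gene, open circles for the PBS library and filled circles for the oxalate library. The circles of most genes lie on top of each other, while Cdkn1b, Rb1, E2f3 and Cdc25c are displaced to the left with oxalate.

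Among the G1 regulators, the cyclins and kinases that open the cycle stood highest. Cdk4, the main kinase partner of cyclin D, had 333 FPKM with PBS and 341 FPKM with oxalate, the highest level of all members. Ccnd1, which encodes cyclin D1, had 299 and 301 FPKM. They stood at percentiles 97.9 and 97.7 of the levels of all genes tested. Ccnd3 followed at 73.8 and 68.6 FPKM and Ccnd2 at 27.7 and 27.8 FPKM, so that the cyclin D1 transcript exceeded that of cyclin D3 4.05-fold with PBS and 4.39-fold with oxalate, and that of cyclin D2 10.8-fold and 10.9-fold. Cdk6, the second cyclin D kinase, was at 46.0 and 44.0 FPKM, 7.25-fold under Cdk4 with PBS and 7.74-fold with oxalate. The oxalate level was 1.008 times the PBS level for Ccnd1 (interval 0.996 to 1.02) and 1.00 times for Ccnd2 (0.951 to 1.06), whereas it was 0.929 times for Ccnd3 (0.885 to 0.975). None of the 5 genes passed 1.2-fold.

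The CDK inhibitors did not share a direction. Cdkn1b (chr6:134920401-134925513) encodes p27, which binds cyclin-CDK complexes and holds cells in G1, and its transcript had 14.7 FPKM in the PBS library and 10.92 FPKM in the oxalate library. The oxalate value was 0.743 times the PBS value (interval 0.692 to 0.797), a log2 fold change of -0.40. Cdkn2c, which encodes the CDK4 and CDK6 inhibitor p18, went the other way, from 49.1 to 55.0 FPKM, a ratio of 1.12 (1.07 to 1.17) that stayed within 1.2-fold. The Cdkn2c transcript was thus 3.34-fold above that of Cdkn1b with PBS and 5.04-fold with oxalate. Cdkn1c (p57) had 0.06 FPKM and Cdkn2b (p15) 0.04 FPKM with PBS, an estimated 4 and 3 reads, and both were listed at 0 with oxalate. A count of 0 in that library allows up to 0.0644 FPKM for Cdkn1c and 0.0591 FPKM for Cdkn2b (3 reads each), above the PBS values, so that no difference was detectable at this depth.

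Of the other inhibitors, which are not members, Cdkn2d (p19, also of the INK4 family) had 6.66 FPKM in the PBS library and 4.09 FPKM in the oxalate library, a ratio of 0.614 (0.510 to 0.735). With the pseudocount of 1 its log2 fold change was -0.59, past 1.5-fold. Cdkn1a, the p21 inhibitor, was at 13.26 and 10.67 FPKM, a ratio of 0.805 (0.727 to 0.889). Cdkn2a, which lies beside Cdkn2b on chromosome 4, had 0.1 FPKM with PBS and was listed at 0 with oxalate. Of the 4 Cip/Kip and INK4 inhibitors whose mean level reached 1 FPKM, of which Cdkn1b and Cdkn2c are members, Cdkn1a, Cdkn1b and Cdkn2d were lowered at least 1.2-fold and Cdkn2c was not, where 5.19% of all genes tested were lowered. The lowered inhibitors had means under 20 FPKM, where the share of all genes tested was 6.72%. Cdkn3, listed with the CDK inhibitors but not counted among these 4, was at 12.2 and 12.6 FPKM. Its ratio was 1.03 (0.933 to 1.14), within 1.2-fold.

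By the median level of the genes compared, the pocket proteins and the E2F factors were the lowest group of members, at 7.81 FPKM. Rb1 (chr14:73183673-73325822) encodes the retinoblastoma protein and had 1.96 FPKM with PBS and 1.11 FPKM with oxalate, an estimated 519 and 189 reads. The ratio was 0.566 (0.477 to 0.670), and the log2 fold change was -0.49 with the pseudocount of 1 and -0.77 and -0.82 with pseudocounts of 0.1 and 0.001, with which Rb1 was past 1.5-fold. The span of Rb1 overlaps those of Lpar6 and Rcbtb2 on the opposite strand, and whether reads were counted by strand is not given in the sources used here. Without strand, reads from stretches shared by exons of both genes could not be told apart. Only whole gene spans were compared and not exons, so whether the genes share such stretches was not tested. In all, 8 members overlap a gene of the opposite strand with a mean of at least 1 FPKM. Besides Rb1 these are Ccnd1, Ccnd3, Cdk4, Ccne2, Ccna2, Cdc20 and Kif20a, and the same limit holds for them. The relatives of Rb1 did not share the direction. Rbl1 (p107) was at 8.94 and 9.21 FPKM, a ratio of 1.03 (0.967 to 1.097), and Rbl2 (p130, not a member) was at 6.93 and 8.16 FPKM, a ratio of 1.18 (1.098 to 1.26). The transcript of Rbl1 was 4.56-fold above that of Rb1 with PBS and 8.30-fold with oxalate.

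E2f3 (chr13:29906575-29986063) encodes an activating E2F factor and had 9.15 FPKM with PBS and 6.47 FPKM with oxalate, a ratio of 0.707 (0.659 to 0.759) and a log2 fold change of -0.44. The other activators did not follow. E2f1 was at 26.8 and 28.1 FPKM, a ratio of 1.05 (0.998 to 1.099), and E2f2 at 2.54 and 2.55 FPKM, a ratio of 1.00 (0.888 to 1.13). E2f1 exceeded E2f3 2.93-fold with PBS and 4.34-fold with oxalate. E2f3 has 3 coding transcripts and starts at more than 1 site in the RefSeq windows, and the deposited values do not separate them. E2f4, a repressor-type E2F that is not a member, was at 172 and 181 FPKM. Tfdp1 and Tfdp2, which encode DNA-binding partners of the E2Fs and are not members, were at 194 and 191 FPKM and at 8.34 and 8.06 FPKM. These genes stayed within 1.2-fold.

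At the G1/S border, Ccne1 (cyclin E1) was at 29.0 and 29.9 FPKM, and Ccne2 (cyclin E2) was at 10.2 and 8.95 FPKM. The ratio was 1.03 for Ccne1 (0.965 to 1.105) and 0.874 for Ccne2 (0.807 to 0.946). Cdk2, the kinase that cyclin E activates, was at 31.6 and 34.1 FPKM, a ratio of 1.08 (1.03 to 1.13). Cdc25a, the phosphatase that removes inhibitory phosphates from CDK2, was at 32.9 and 29.8 FPKM, a ratio of 0.907 (0.864 to 0.952). The 4 genes summed to 104 FPKM with PBS and 103 with oxalate.

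Over the whole G1 group, 16 of 18 genes were compared, of which 9 were higher and 7 lower with oxalate. The middle value of their log2 fold changes was 0.004 and the mean was -0.083. Cdkn1b, Rb1 and E2f3 were lowered at least 1.2-fold (18.8%, beside 5.19% of all genes tested).

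The mitotic genes stood at higher levels, with a median of 65.6 FPKM beside 28.6 FPKM for the G1 regulators compared and 16.7 FPKM for all genes tested. All 26 were compared, 13 were higher and 13 lower with oxalate, and their sum was 1995 FPKM with PBS and 1990 FPKM with oxalate. Their median was a log2 fold change of 0.005, and the medians of the mitotic genes and the G1 regulators differed by 0.001. A single mitotic gene, Cdc25c, was lowered at least 1.2-fold with the pseudocount of 1 (3.85%, beside 5.19% of all genes tested), and none was raised on that scale, Cdc25b lying just inside the mark.

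**Figure D2:**
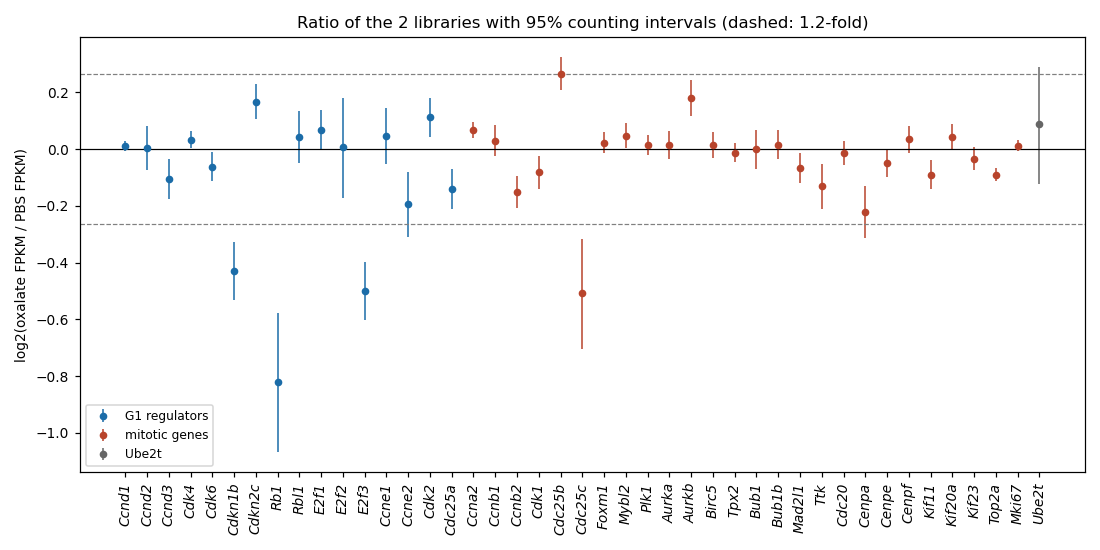
Ratio of oxalate to PBS FPKM on a log2 scale (vertical axis) for the 43 members compared, with bars for the 95% counting interval and dashed lines at 1.2-fold. Rb1, E2f3, Cdc25c and Cdkn1b lie under the lower line, and Cdc25b lies at the upper line.

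The cyclins of S phase and mitosis were nearly level. Ccna2 (cyclin A2) had 187 FPKM with PBS and 196 FPKM with oxalate, a ratio of 1.05 (1.03 to 1.07). Ccnb1 (cyclin B1) had 62.2 and 63.5 FPKM, a ratio of 1.02 (0.983 to 1.06), while Ccnb2 (cyclin B2) had 77.9 and 70.2 FPKM, a ratio of 0.901 (0.866 to 0.937). Their kinase Cdk1 was at 54.8 and 51.7 FPKM, a ratio of 0.945 (0.908 to 0.983). The 2 phosphatases grouped here with CDK1 moved apart. Cdc25b (chr2:131186949-131198497) had 30.9 FPKM in the PBS library and 37.2 FPKM in the oxalate library, 20.2% more (interval of the ratio 1.15 to 1.25), and its log2 fold change of 0.26 was the highest of all members. Cdc25c (chromosome 18) was at 6.37 and 4.48 FPKM, a ratio of 0.703 (0.613 to 0.803) and a log2 fold change of -0.43. Cdc25b therefore exceeded Cdc25c 4.85-fold with PBS and 8.29-fold with oxalate. Wee1 and Pkmyt1, the kinases that oppose both phosphatases and are not members, were at 13.0 and 12.9 FPKM and at 25.8 and 28.7 FPKM.

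The transcription factors of the mitotic program were nearly level, 1.62% higher with oxalate for Foxm1 and 3.35% higher for Mybl2, although with the trend in GC content removed the log2 fold change of Foxm1 was -0.01. Foxm1 had 122 FPKM with PBS and 124 FPKM with oxalate, and Mybl2 (B-Myb, a partner of the MuvB complex) had 86.7 and 89.6 FPKM. The mitotic kinases and their partners gave the same picture. Plk1 had 211 and 213 FPKM, Aurka 74.7 and 75.4 FPKM, and Tpx2, which activates Aurora A on the spindle, 82.0 and 81.2 FPKM. Plk1 exceeded Aurka 2.83-fold in both libraries.

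Aurora B acts in the chromosomal passenger complex, and Aurkb was the further apart of the members from that complex, at 45.6 and 51.6 FPKM, a ratio of 1.13 (1.08 to 1.18). Birc5 (survivin), its partner, was at 76.7 and 77.4 FPKM, 0.992% higher (interval of the ratio 0.978 to 1.04). The remaining subunits, which are not members, were also nearly level, Incenp at 122 and 124 FPKM and Cdca8 at 68.5 and 69.2 FPKM.

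The spindle checkpoint holds anaphase back until every chromosome is attached. Bub1 was at 22.1 FPKM in both libraries, Bub1b at 37.0 and 37.4 FPKM and Mad2l1 at 28.8 and 27.5 FPKM. Ttk, which encodes the kinase MPS1 at the head of the checkpoint, was at 30.0 and 27.4 FPKM, a ratio of 0.913 (0.865 to 0.964). Cdc20, the activator of the anaphase-promoting complex that the checkpoint inhibits, was at 116 and 115 FPKM, and Fzr1, the other activator and not a member, was at 57.7 and 55.4 FPKM. Cdc20 overlaps Elovl1 on the opposite strand.

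Of the centromere genes, Cenpa, the histone H3 variant that marks centromeres, was lower with oxalate, at 67.5 and 57.9 FPKM, a ratio of 0.857 (0.805 to 0.913) that stayed within 1.2-fold. Cenpe, a kinetochore motor, was at 36.4 and 35.2 FPKM and Cenpf at 31.5 and 32.3 FPKM. The 3 genes summed to 135 FPKM with PBS and 125 FPKM with oxalate, the largest shift among the sums of the mitotic role groups. The chaperone of CENP-A, Hjurp, which is not a member, was at 45.6 and 48.6 FPKM.

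The kinesins that build and clear the spindle were nearly level. Kif11 (Eg5), which pushes spindle poles apart, was at 30.3 and 28.5 FPKM, a ratio of 0.940 (0.907 to 0.973). Kif20a was at 67.3 and 69.4 FPKM and Kif23 at 88.9 and 86.9 FPKM, both motors of the central spindle. Top2a, which untangles sister DNA, was at 136 and 128 FPKM, a ratio of 0.939 (0.924 to 0.954). Mki67, whose protein Ki-67 coats mitotic chromosomes and is used as a stain for cycling cells, was at 186 and 187 FPKM, a ratio of 1.008 (0.995 to 1.02). Ube2t was at 10.96 and 11.65 FPKM, a ratio of 1.06 (0.919 to 1.22).

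By counting error alone, the interval of the ratio held 1 for 20 of 43 members, lay above 1 for 7 and lay below 1 for 16. Over all genes with an interval, 25.0% lay above 1 and 23.9% below 1. Among the G1 regulators 3 lay above and 7 below, and among the mitotic genes 4 above and 9 below.

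**Figure D3:**
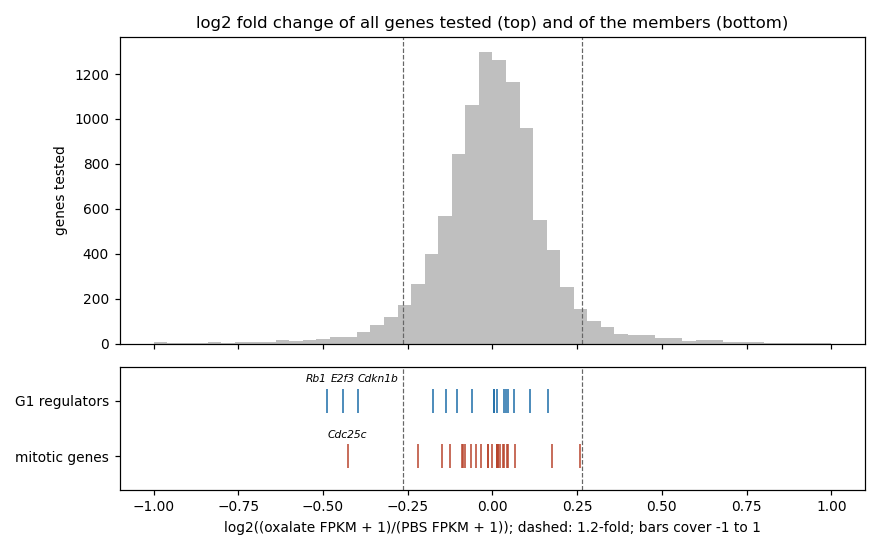
Upper panel: number of genes tested (vertical axis) by log2 fold change with a pseudocount of 1 (horizontal axis, bars from -1 to 1). Lower panel: 1 tick per member in each group, with dashed lines at 1.2-fold. The ticks sit around 0, apart from Rb1, E2f3 and Cdkn1b among the G1 regulators and Cdc25c among the mitotic genes.

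The 4 members lowered at least 1.2-fold had low levels. All 4 were among the 8 members compared with a mean under 20 FPKM, and none of the 35 members at 20 FPKM or more passed the mark. Over all genes tested, 6.72% of those under 20 FPKM and 3.29% of those at or above it were lowered at least 1.2-fold. The division at 20 FPKM was chosen after the values were seen. The GC content of the 4 genes ran from 41.2% to 49.0%, beside a median of 51.0% over all genes tested. When the trend of the fold change with GC content was removed, all 4 stayed past the mark, with log2 fold changes of -0.35 for Cdkn1b, -0.41 for Rb1, -0.44 for E2f3 and -0.41 for Cdc25c. Rb1 and Cdc25c have 1 coding transcript each, and E2f3 and Cdkn1b have 3 each.

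For each promoter motif, the median log2 fold change was negative in members with it and positive in members without it. The groups share genes, and the differences were not tested. These medians are small and are given without the trend in GC content removed. That step changed the sign of 11 values of single members. The median log2 fold change was -0.033 for 15 members with a CHR core in a window and 0.031 for 18 without, and it was -0.038 for 6 members with an E2F motif and 0.012 for 27 without. For CCAAT it was -0.014 with (25 members) and 0.036 without (8 members). Of the 2 lowered members with a window, Cdkn1b held CCAAT and E2f3 held all 3 motifs.

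Beyond the members, 151 other genes of the pathway were matched, and 149 of them reached a mean level of 1 FPKM. In this set, 2 were raised and 7 lowered at least 1.2-fold (1.34% and 4.70%, beside 4.75% and 5.19% of all genes tested). With a pseudocount of 0.1 or 0.001 9 were lowered, and with the GC trend removed 3 were raised and 6 lowered. The median log2 fold change was -0.026, 49 genes being higher and 99 lower, whereas 49.0% of all genes tested were lower. With the GC trend removed, a step that was added for the medians of these lists after the values were seen, the median was -0.014, with 62 higher and 87 lower. These genes had a median GC content of 46.9%.

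The raised genes were Arpp19, which encodes an inhibitor of the phosphatase PP2A at mitotic entry, and Pmf1, a subunit of the MIS12 kinetochore complex. Arpp19 had 30.93 FPKM in the PBS library and 44.05 FPKM in the oxalate library, a ratio of 1.42 (1.35 to 1.498). Pmf1 was at 99.9 and 128 FPKM, a ratio of 1.29 (1.23 to 1.34). The lowered genes were Cdkn1a and Cdkn2d, given above, with Cks2, Anapc13, Mad2l1bp, Knl1 and Pttg1. Pttg1 (securin, the inhibitor of separase) was at 57.6 and 45.8 FPKM, a ratio of 0.795 (0.745 to 0.849), and Cks2, a small subunit of CDK complexes, was at 42.2 and 34.1 FPKM, a ratio of 0.807 (0.742 to 0.876). Knl1, the kinetochore scaffold to which BUB1 binds, was at 11.5 and 8.91 FPKM, a ratio of 0.777 (0.728 to 0.828). Anapc13, a subunit of the anaphase-promoting complex, was at 15.6 and 11.95 FPKM, and Mad2l1bp, which helps to silence the checkpoint, at 11.13 and 8.99 FPKM.

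By role, 8 of the 30 kinetochore and centromere genes were higher and 22 lower (median log2 fold change -0.081), and 5 of the 23 genes of cohesin, separase and condensin were higher and 18 lower (-0.039). With the GC trend removed, the kinetochore genes divided into 12 higher and 18 lower (-0.067) and the cohesin list into 7 and 16 (-0.020). The median GC content of these lists was 45.1% and 43.4%. The 13 genes of the G1/S kinases and of SCF, a ubiquitin ligase, had a median of -0.084, with 3 higher and 9 lower, and of -0.014, with 5 higher and 8 lower, once the GC trend was removed. The 18 genes of the anaphase-promoting complex and its partners had a median of -0.016 and the 26 other kinesins and spindle genes -0.019, which with the GC trend removed became -0.027 and 0.007, the latter with 14 higher and 12 lower. The 12 genes of mitotic entry had a median of 0.016, and of 0.051 with the GC trend removed.

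**Figure D4:**
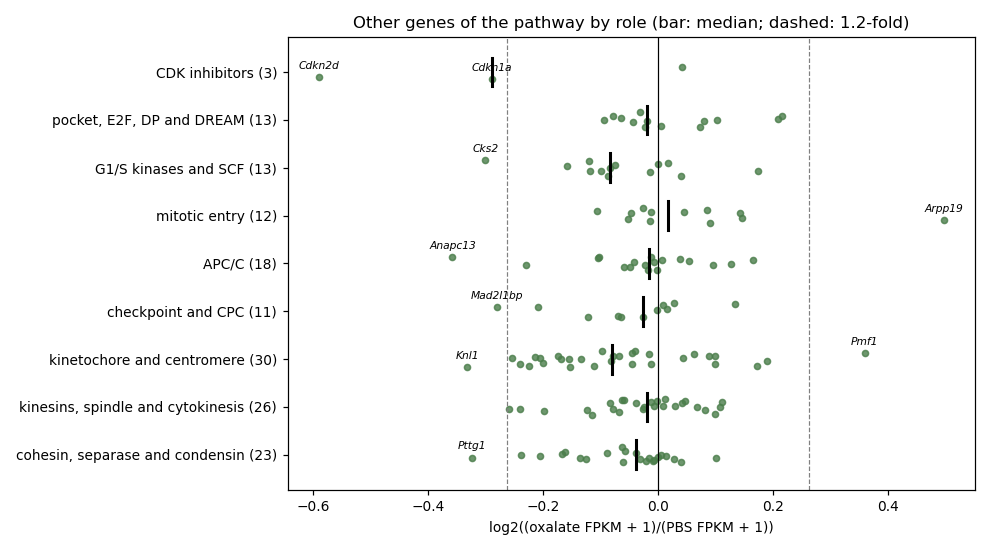
log2 fold change with a pseudocount of 1 (horizontal axis) of the 149 other pathway genes compared, 1 point per gene in rows by role, with the number of genes in parentheses, black bars for medians and dashed lines at 1.2-fold. Arpp19 and Pmf1 lie right of the upper line, and Cdkn2d lies farthest left.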

How the data were processed

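RNA of 4T1 cells, 1 library for PBS and 1 for oxalate, was enriched with oligo(dT), primed at random and sequenced on an Illumina HiSeq2500. What the authors deposited are FPKM values per Ensembl gene, rounded to 2 decimals. The submitters' processing notes name Bowtie2 2.2.8 and TopHat2 2.1.1, whereas the quantification tool, genome build and annotation are not given in the sources used here. Symbols (21848 found, 63 not), transcript lengths and GC content came from GENCODE M21. Reads were estimated as FPKM times the mean length of the coding transcripts, divided by the FPKM of 1 read in 1 kb (0.0176 for PBS, 0.0274 for oxalate). Of low values of short genes, 97.6% of 42 and 94.3% of 35 lay within 0.2 of a whole read. The GC trend was removed by subtracting the median of each of 20 GC bins. The methods state no test for these values, and none was made. All members are named by role, with other pathway genes past 1.5-fold or paired with a member. Arpp19, Pmf1, Cks2, Pttg1, Knl1, Anapc13 and Mad2l1bp, past 1.2-fold only, and Wee1, Pkmyt1, Rbl2, E2f4 and Cdkn3 were added after their values were seen. The members and lists were chosen with earlier results of these data known. The scripts were tested on simulated data. Tools were matplotlib 3.10.9, scipy 1.17.1, pandas 2.3.3, numpy 2.4.6 and Python 3.11.15. 1 of the listed cell type markers is not reported here.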

Additional observations from a re-analysis of the deposited data

How the results depend on the processing

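No paired analysis was possible because only 1 library stands for PBS and 1 for oxalate, and no replicate could be left out. The cause was not tested for the changes that follow, except where a setting keeps fewer genes. The count of members raised at least 1.2-fold went from 0 to 1 (Cdc25b) with a pseudocount of 0.1 or 0.001 and after scaling to the same FPKM sum. With members of 1 coding transcript only, 11 of them, 2 members were lowered, the median of the mitotic genes was -0.087 and the difference of the medians -0.095, and 0 other pathway genes were raised and 2 lowered. With the mean in place of the median, the G1 regulators were at -0.083 and the difference at 0.060. The lowered members numbered 4 under every other setting but a mean of at least 5 FPKM, which leaves out Rb1 and gave 3. The median of the G1 regulators was -0.026 with no filter and -0.019 with the GC trend removed, and that of the mitotic genes was -0.003 with the GC trend removed. Of 172 recomputed values of 43 members, 9 moved by more than the reach of their counting interval to either side (among them Rb1, -0.77 and -0.82 with pseudocounts of 0.1 and 0.001) and 0 of the lowered members reversed. The sign changed in 11 values of members within 1.2-fold, all with the GC trend removed. With the 250 bases before the start, searched alone as a setting added after the values were seen, the CHR core was in 6 mitotic windows in place of 13. Depth limits Cdkn1c and Cdkn2b.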
